A study of Mus musculus with 9 samples.

Results

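The 6 genes Ly6a, Ly6c1, Ly6c2, Ly6e, Ly6i and Plac8 were followed through 9 single-colour arrays of mouse macrophages, and each of their probes was taken by its gene name in the scanner files. The array carried 7 probes for 5 of the 6 genes, among 36413 gene names in all. Ly6c1 and Plac8 had 2 probes each. Ly6c2 had no probe of its own name, but 1 of the Ly6c1 probes also carried the Ly6c2 transcript in its annotation and is called the shared Ly6c probe here.

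All samples came from C57BL/6J mice and were labelled as macrophages. The control group held 3 samples of peritoneal exudate cells (PECs). The other groups held macrophages from a fibrosarcoma (tumour-associated macrophages, TAMs) in subsets named F4/80high and F4/80low after a surface marker, with 3 samples each. The labels give no other marker, no age and no treatment, and they do not name the tumour line. They call the samples biological replicates without naming separate animals, so the p-values measure only the spread between these samples. Column-purified total RNA was labelled with Cy3. The comparisons ask how macrophages from the tumour differ from those of the peritoneum, and whether the subsets within the tumour differ.

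Ly6 proteins are small, cysteine-rich proteins that share the LU fold, and most are held on the outer face of the plasma membrane by a glycosylphosphatidylinositol (GPI) anchor. Ly6C, the antigen made by Ly6c1 and Ly6c2, is the standard surface marker of classical, inflammatory mouse monocytes and is known to be lost as these cells mature into macrophages. Ly6a (Sca-1) and Ly6e are also known as interferon-inducible genes. Plac8 encodes a small cysteine-rich protein that is outside the Ly6 family and is known from monocytes, neutrophils and other leukocytes.

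Levels are log2 values of the processed spot intensity relative to the 75th percentile of each array, so that 0 is the level of that percentile. A probe is called well above background where the scanner software marked it so. Differences were tested with limma across 21199 probes, with Benjamini-Hochberg adjusted p-values, and a probe was called at an adjusted p under 0.05. An adjusted p below comes from that fit, or, where an alternative setting or a left-out sample is named, from the limma fit under that setting. Where a group was not well above background on any array, its level is only a bound and the fold is written as "at least N-fold", with the dimmer group at its own level or, where higher, at the lowest signal well above background on each array. This bound is approximate and holds under the main processing only, and other treatments of dim signals gave smaller changes.

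The probes that gave different answers for the same gene are shown first, since the results for Ly6c1 and Plac8 depend on which is read. The first 30 of their 60 bases are given 5′ to 3′ as designed for the array.
Ly6c1, own probe (A_55_P2064771): tattatagtatcaccatccacacataagta
Ly6c1/Ly6c2, shared probe (A_55_P1961499): agcagttacctgccgcgcctctgatggatt
Plac8, 3′ probe (A_55_P1962305): attgctctttgacttggtttcttcttgctc
Plac8, 5′ probe (A_55_P1962304): ctatttgtagtaagactcaaccccagacca
Per the array's annotation on mm9, the own Ly6c1 probe lies at chr15:74875495-74875554 and the shared probe at chr15:74877785-74877844, both on the minus strand. The Plac8 probes lie on the minus strand of chromosome 5, the 3′ probe at chr5:100982797-100982856 and the 5′ probe at chr5:101001165-101001224. The first 50 bases of the 5′ Plac8 probe matched the first 50 bases after a Plac8 start site in RefSeq, so this probe reads the 5′ end of transcripts from that start. The longest run that any of the 7 probes shared with a probe of another name on the array was between 12 and 15 bases. Probes were compared with probes and not with transcripts, and Ly6c2 had no probe of its own name. The comparison therefore cannot show whether the own Ly6c1 probe also reads Ly6c2, and its name rests on the annotation alone. Exon annotation on mm9 was not used here.

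In F4/80low TAMs every probe of these genes was higher than in PECs, and Ly6c1, Plac8 and Ly6a were among the probes with the largest rises on the array. In F4/80high TAMs Ly6a and the own Ly6c1 probe were also far above PECs, while the shared Ly6c probe and Plac8 stayed low. Between the TAM subsets, Ly6c and Plac8 were lower in F4/80high cells, Ly6e was higher, and Ly6a and Ly6i did not pass the test. In F4/80high TAMs against PECs, 6 of 7 probes were called higher and 0 lower. Over all probes tested, 52.4% were called in that comparison, 24.5% higher and 28.0% lower. In F4/80low TAMs against PECs, 7 of 7 probes were called higher. The share over all probes was 50.8%, with 21.9% higher and 28.9% lower. In F4/80high against F4/80low TAMs, 1 probe was called higher and 4 lower, where 31.9% of all probes were called, 18.3% higher and 13.6% lower. The median log2 change of the 7 probes was 2.82, 8.05 and -1.87 in these comparisons, beside -0.01, -0.10 and 0.08 over all probes tested. Ly6e alone was well above background on all 9 arrays. The other probes passed the filter on dim probes only through TAM arrays and so had to differ from PECs to some degree, and both PEC comparisons share the same control arrays. The shared Ly6c probe and the 5′ Plac8 probe passed only through F4/80low arrays. This favoured a difference from F4/80high TAMs too, so their p-values and ranks between the subsets are a description.

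**Figure D1:**
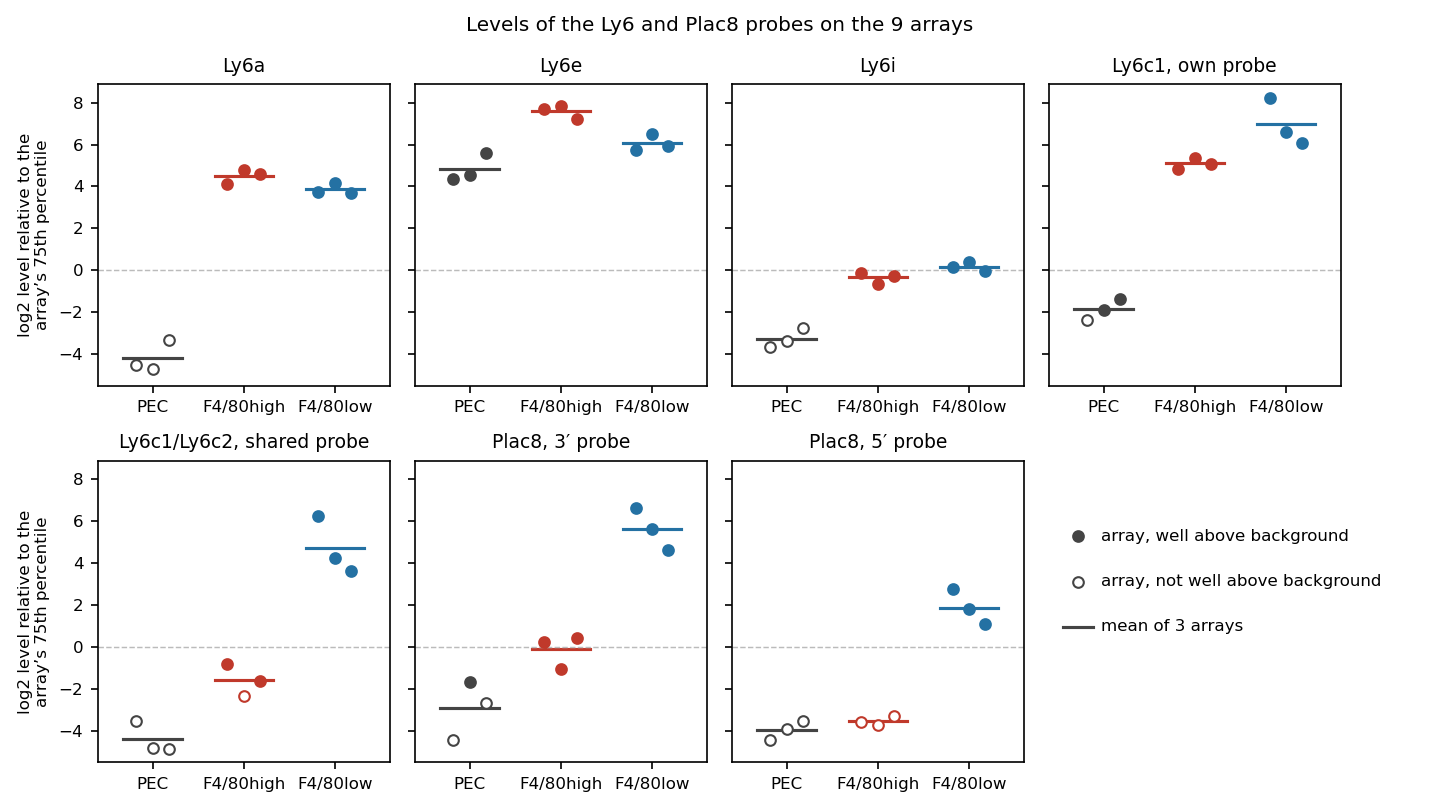
Log2 level relative to the array's 75th percentile for each of the 7 probes, with 1 point per array, a bar at the mean of the 3 arrays, and open points for arrays on which the probe was not well above background. Ly6e was measured on all 9 arrays, and the shared Ly6c probe and both Plac8 probes were high in F4/80low TAMs, with means of 4.69, 5.61 and 1.87.

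Ly6a, which encodes Sca-1, a surface marker used for stem and progenitor cells and for activated lymphocytes, was close to background in PECs and bright in both TAM subsets. Its probe lies at chr15:74825553-74825612 (minus strand, mm9). The level in PECs was -4.51, -4.73 and -3.33 (mean -4.19 ± 0.76, SD, n = 3), and 0 of 3 arrays were well above background. In F4/80high TAMs it was 4.13, 4.79 and 4.60 (4.51 ± 0.34, SD, n = 3), and in F4/80low TAMs 3.74, 4.14 and 3.70 (3.86 ± 0.24, SD, n = 3). Every TAM array was above every PEC array, and the TAM subsets overlapped. Ly6a was at least 134-fold higher in F4/80high TAMs than in PECs (fitted log2 change 8.70, SE 0.36, adjusted p = 2.89e-07). It was at least 85.5-fold higher in F4/80low TAMs (8.05, adjusted p = 6.47e-07). The difference between the subsets was 0.65 (95% CI -0.16 to 1.45, adjusted p = 0.204), so the order F4/80high over F4/80low did not hold beyond the spread.

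Ly6e, which encodes a GPI-anchored protein known to restrict the entry of some viruses, was bright in every group, and its order was F4/80high, F4/80low, PEC. Its probe lies at chr15:74789592-74789651 (plus strand, mm9). The level was 4.33, 4.52 and 5.60 in PECs (4.82 ± 0.69, SD, n = 3), 7.69, 7.86 and 7.22 in F4/80high TAMs (7.59 ± 0.33) and 5.72, 6.51 and 5.94 in F4/80low TAMs (6.06 ± 0.41). The groups did not overlap, although the highest PEC array, at 5.60, lay just under the lowest F4/80low array, at 5.72. The rise in F4/80high TAMs was 2.77 (SE 0.36, adjusted p = 0.00019). The rise in F4/80low TAMs was 1.24 (SE 0.36, adjusted p = 0.0171). Between the subsets Ly6e was higher in F4/80high TAMs by 1.54 (adjusted p = 0.00989). The rise in F4/80low TAMs missed the threshold when PEC replicate 1 (0.99, adjusted p = 0.0569), PEC replicate 2 (1.09, adjusted p = 0.0608) or F4/80low replicate 2 (1.01, adjusted p = 0.0604) was left out.

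Ly6i, a close relative of the Ly6c genes, was below background in PECs and measurable but dim in both subsets. Its probe lies at chr15:74810484-74810543 (minus strand, mm9). The level was -3.66, -3.40 and -2.74 in PECs (-3.27 ± 0.48, SD, n = 3), -0.12, -0.64 and -0.27 in F4/80high TAMs (-0.34 ± 0.27) and 0.13, 0.37 and -0.05 in F4/80low TAMs (0.15 ± 0.21). All 6 TAM arrays were well above background and above every PEC array. Ly6i was at least 4.64-fold higher in F4/80high TAMs (fitted log2 change 2.92, SE 0.26, adjusted p = 2.16e-05) and at least 6.53-fold higher in F4/80low TAMs (3.42, adjusted p = 1.32e-05). Over the alternative settings these log2 changes were as low as 0.77 and 1.02, under the bounds. The subsets did not overlap but the difference was small, -0.49 (95% CI -1.08 to 0.10), and it did not pass the test (adjusted p = 0.188).

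The own Ly6c1 probe was high in both TAM subsets and highest in F4/80low TAMs. Its level was -2.35, -1.88 and -1.37 in PECs (-1.87 ± 0.49, SD, n = 3), where 2 of 3 arrays were well above background. It was 4.82, 5.38 and 5.08 in F4/80high TAMs (5.09 ± 0.28) and 8.21, 6.61 and 6.07 in F4/80low TAMs (6.96 ± 1.11). No groups overlapped, and F4/80low replicate 1 stood above the other arrays of its group. The change from PECs was 6.96 in F4/80high TAMs (SE 0.49, adjusted p = 5.84e-06) and 8.83 in F4/80low TAMs (adjusted p = 2.54e-06). F4/80high TAMs were lower than F4/80low TAMs, with a log2 difference of -1.87 (SE 0.49, adjusted p = 0.018). Without F4/80low replicate 1 the last difference was -1.25 (adjusted p = 0.0199), and without F4/80high replicate 1 it was -1.73 and missed the threshold (adjusted p = 0.0604).

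The shared Ly6c probe gave a different picture in F4/80high TAMs. Its level was -3.56, -4.84 and -4.87 in PECs (-4.42 ± 0.75, SD, n = 3), with 0 of 3 arrays well above background. In F4/80high TAMs it was -0.82, -2.37 and -1.62 (-1.60 ± 0.77), with 2 of 3 arrays above background, and in F4/80low TAMs 6.23, 4.22 and 3.62 (4.69 ± 1.37). The groups did not overlap, and the gap lay between F4/80low TAMs and the rest. The probe was at least 152-fold higher in F4/80low TAMs than in PECs (fitted log2 change 9.11, SE 0.67, adjusted p = 1.08e-05). F4/80high TAMs were lower than F4/80low TAMs, with a log2 difference of -6.29 (adjusted p = 0.000213), the 33rd lowest change of the 21199 probes. The change from PECs to F4/80high TAMs was 2.82 (adjusted p = 0.00673), and this call was lost with slide as a block (1.96, adjusted p = 0.14) and with normexp background correction (0.62, adjusted p = 0.359).

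The log2 change from F4/80low to F4/80high TAMs, taken as the difference of the probes within each array, was lower on the shared probe than on the own probe (difference of changes -4.42, exact permutation test, two-sided, p = 0.1). With 3 arrays against 3, 0.1 is the smallest p this test can give, so it cannot pass the threshold. The same differences against PECs are not given, since the shared probe was at background on every PEC array. Ly6c1 and Ly6c2 are near-identical neighbours, and signal from both cannot be told apart on the shared probe.

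Plac8 was low in PECs and F4/80high TAMs and high in F4/80low TAMs on both of its probes. The 3′ probe read -4.45, -1.67 and -2.69 in PECs (-2.93 ± 1.40, SD, n = 3), with 1 of 3 arrays above background. It read 0.24, -1.05 and 0.42 in F4/80high TAMs (-0.13 ± 0.80) and 6.60, 5.60 and 4.61 in F4/80low TAMs (5.61 ± 1.00). The groups did not overlap, and the PEC arrays were widely spread. The 3′ probe was higher in F4/80low TAMs than in PECs by 8.54 (SE 0.73, adjusted p = 2.55e-05) and lower in F4/80high than in F4/80low TAMs, with a log2 difference of -5.73 (adjusted p = 0.000508). Its change from PECs to F4/80high TAMs was 2.81 (adjusted p = 0.0104). Leaving out PEC replicate 1 gave 2.05 and leaving out PEC replicate 2 gave 3.44, and the change missed the threshold with normexp background correction (0.98, adjusted p = 0.0687).

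The 5′ probe of Plac8, which begins at the RefSeq start site, was well above background in F4/80low TAMs only. It read -4.45, -3.90 and -3.57 in PECs (-3.98 ± 0.45, SD, n = 3), -3.58, -3.75 and -3.31 in F4/80high TAMs (-3.55 ± 0.22) and 2.76, 1.79 and 1.06 in F4/80low TAMs (1.87 ± 0.85). PECs and F4/80high TAMs overlapped below background, and no fold is given between them (adjusted p = 0.39). The probe was at least 21.5-fold higher in F4/80low TAMs than in PECs (fitted log2 change 5.85, SE 0.40, adjusted p = 7.17e-06). It was at least 17.1-fold lower in F4/80high than in F4/80low TAMs (-5.42, adjusted p = 3.06e-05). The filter let this probe in through F4/80low arrays alone, so these p-values are a description.

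**Figure D2:**
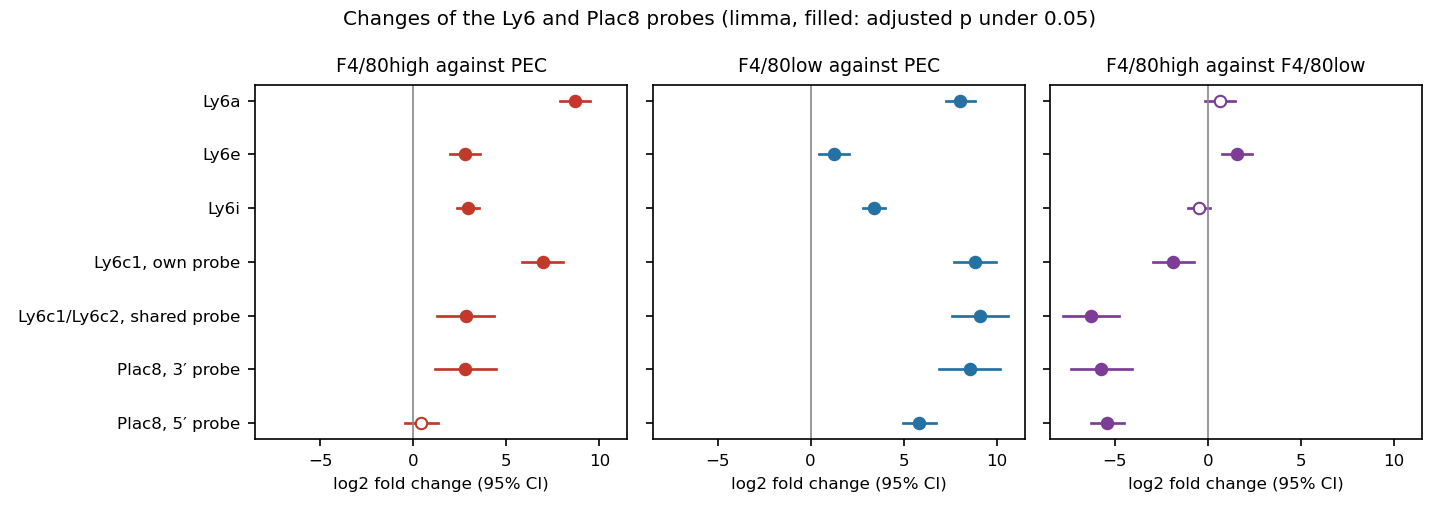
Log2 fold change of each probe with its 95% confidence interval from limma in the 3 comparisons, filled where the adjusted p was under 0.05. Where a group was at background the plotted change is the fitted value and no bound. The intervals of Ly6a (-0.16 to 1.45) and Ly6i (-1.08 to 0.10) between the subsets span 0, and those of Plac8 and the shared Ly6c probe lie far below it.

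Among the 21199 probes ranked by change from PECs to F4/80low TAMs, the shared Ly6c probe was the 13th highest, the own Ly6c1 probe the 17th, the 3′ Plac8 probe the 22nd and Ly6a the 31st. From PECs to F4/80high TAMs, Ly6a was the 42nd and the own Ly6c1 probe the 99th, and no other probe of these genes was above the 981st place, held by Ly6i. Changes of probes at background are open to the way dim signals are treated, so these ranks are a description.

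The arrays lay on 2 slides, with PEC replicate 1 and all 6 TAM arrays on slide 1 and the other PEC arrays on slide 2. With slide as a block, as within slide 1, the change from PECs to F4/80high TAMs was 9.02 for Ly6a, 3.26 for Ly6e, 3.32 for Ly6i, 7.45 for the own Ly6c1 probe, 1.96 for the shared Ly6c probe and 4.32 for the 3′ Plac8 probe. From PECs to F4/80low TAMs these values were 8.37, 1.72, 3.81, 9.32, 8.25 and 10.05 in the same order, and 6.32 for the 5′ Plac8 probe. These are fitted changes, which are no bounds where PECs were at background. The calls were the same as without the block except for the shared Ly6c probe in F4/80high TAMs. Within slide 1 the PEC group is a single array, whose spread is assumed to be that of the TAM groups. The comparison of the TAM subsets lies within slide 1.

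Normexp background correction, which lifts dim signals, made the changes of probes near background smaller without turning their direction. For Ly6a, Ly6i, the shared Ly6c probe and the 5′ Plac8 probe they lay under the bounds given above. From PECs to F4/80high TAMs it gave 4.70 for Ly6a, 4.79 for the own Ly6c1 probe, 2.44 for Ly6e and 0.88 for Ly6i. From PECs to F4/80low TAMs it gave 4.02 for Ly6a, 6.49 for the own Ly6c1 probe, 4.97 for the shared Ly6c probe, 5.52 and 2.23 for the 3′ and 5′ Plac8 probes and 1.09 for Ly6i, all called. Between the subsets it gave -4.35 for the shared Ly6c probe, -4.54 and -1.98 for the Plac8 probes, and a difference in Ly6a of 0.69 that passed the threshold (adjusted p = 0.0199). The rise of Ly6e in F4/80low TAMs was 1.07 under it (adjusted p = 0.0524), and 0.76 with each array centred on its median (adjusted p = 0.141).

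The 5 probes of the Ly6 genes on chromosome 15 lie within 88.3 kb of each other. The array held 12 probes from 100 kb before the first to 100 kb after the last, of which 7 were tested and 5 were too dim. The neighbours were named for their position. I830127L07Rik, which RefSeq lists as a synonym of Ly6a2, a further gene of the Ly6 cluster, was well above background in F4/80low TAMs only. It was at least 20.4-fold higher there than in PECs (fitted log2 change 6.54, adjusted p = 0.000523), and at least 16.2-fold lower in F4/80high than in F4/80low TAMs (-5.63, adjusted p = 0.00207). Its mean level was -4.75 in PECs, -3.83 in F4/80high and 1.79 in F4/80low TAMs. This probe passed the filter only through F4/80low arrays, which favoured a difference from the other groups. BB157357 was above background on no PEC array and was called higher in both subsets. The F4/80high subset was at least 2.77-fold above PECs. In the F4/80low subset 2 of 3 arrays measured the probe, and no fold is given. Ly6m, Gm6617, Gm8000, Gm3389 and LOC100045833 were the probes too dim to be tested.

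**Figure D3:**
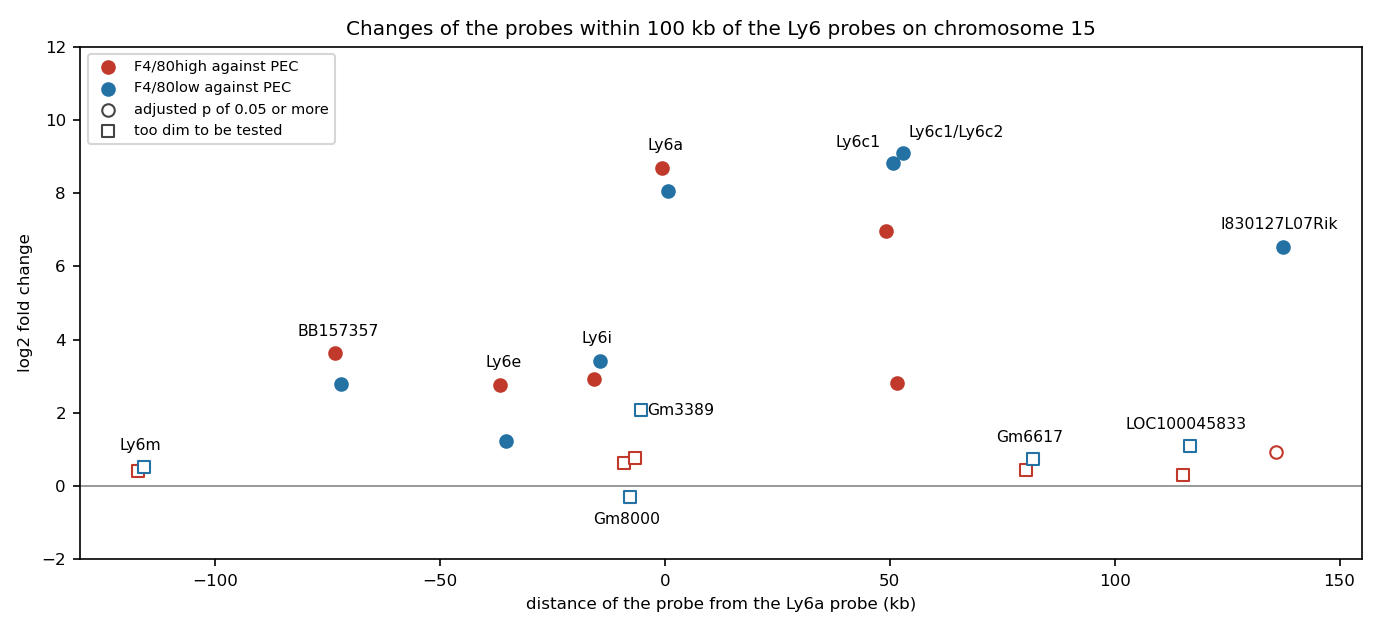
Log2 fold change from PECs against the distance of each probe from the Ly6a probe in kb, for the 12 probes within 100 kb of the Ly6 probes. The changes at Ly6a, Ly6c1 and I830127L07Rik were the largest in F4/80low TAMs in this window, and 5 probes were too dim to be tested.

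RefSeq start-site sequences (GRCm38.p6, not the build of the array) were given for 3 of the 6 genes, Ly6c1, Ly6c2 and Plac8. The 250 bases before the first listed start site are printed 5′ to 3′ on the minus strand, since Plac8 and the shared Ly6c probe were high in the same group, with each GAGGAA on either strand in capitals.
Ly6c1 (chr15:75048838-75049087): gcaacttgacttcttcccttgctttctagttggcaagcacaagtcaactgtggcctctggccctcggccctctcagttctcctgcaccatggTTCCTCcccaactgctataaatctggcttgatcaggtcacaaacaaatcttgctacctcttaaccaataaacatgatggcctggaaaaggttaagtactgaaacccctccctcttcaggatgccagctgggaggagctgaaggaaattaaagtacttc
Ly6c2 (chr15:75111972-75112221): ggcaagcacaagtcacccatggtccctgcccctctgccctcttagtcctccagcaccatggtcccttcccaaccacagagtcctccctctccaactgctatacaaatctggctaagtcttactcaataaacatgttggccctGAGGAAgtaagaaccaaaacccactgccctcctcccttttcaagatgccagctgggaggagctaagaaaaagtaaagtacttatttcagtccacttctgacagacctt
Plac8 (chr5:100572206-100572455): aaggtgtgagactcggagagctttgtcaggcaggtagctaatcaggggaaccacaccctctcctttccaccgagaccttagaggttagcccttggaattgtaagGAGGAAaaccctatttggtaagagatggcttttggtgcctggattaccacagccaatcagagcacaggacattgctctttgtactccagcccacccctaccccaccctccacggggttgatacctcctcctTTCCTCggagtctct
The Ly6c1 and Ly6c2 windows of 300 bases (250 before and 50 after the start) were identical at 213 of 259 aligned bases (82.2%). GAGGAA, the core bound by ETS factors such as PU.1 (Spi1), the master factor of the myeloid lineage, lay at -158 before the Ly6c1 start, at -108 before the Ly6c2 start and at -146 and -15 before the Plac8 start. Positions give the first base of the match on the printed strand. Of the 32851 windows in the table, 28.3% held this short motif. The interferon motif GAAANNGAAA (3.44% of windows), searched on both strands, was not found in these windows, which says only that these letters are absent there. These matches are a description and not evidence of binding.

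The other genes of the Ly6/uPAR family, from a list of 30 of which 29 were on the array, were mostly dim, and 10 were tested. In F4/80high TAMs 5 were higher and 2 lower than in PECs, in F4/80low TAMs 6 were higher and 0 lower, and between the subsets 1 was higher in F4/80high TAMs and 4 were lower. Over all probes 24.5% were called higher and 28.0% lower in the first comparison, 21.9% and 28.9% in the second and 18.3% and 13.6% in the third. The median change of the 10 genes was 0.69, 1.42 and -0.74. Ly6f, a neighbour in the family, was at least 3.05-fold higher in F4/80high TAMs (fitted log2 change 3.46, adjusted p = 3.73e-05) and at least 5.84-fold higher in F4/80low TAMs (4.40, adjusted p = 1.38e-05). Ly6g5b was higher in F4/80low than in F4/80high TAMs (difference of F4/80high from F4/80low -1.90, adjusted p = 0.00971). Lypd6b was well above background in F4/80low TAMs only, at least 2.51-fold above PECs and with F4/80high TAMs at least 1.99-fold lower. Ly6d was at least 1.86-fold lower in F4/80high than in F4/80low TAMs (fitted log2 change -2.76, adjusted p = 0.0034). Ly6g5b, Lypd6b and Ly6d passed the filter only through F4/80low arrays, which favoured a difference from F4/80high TAMs. Cd59a, which encodes an inhibitor of the terminal complement complex, went the same way between the subsets (-2.77, adjusted p = 6.78e-05) and was lower in F4/80high TAMs than in PECs, with a log2 difference of -1.07. Lypd2 was higher than in PECs by 1.13 in F4/80high and by 1.68 in F4/80low TAMs. The gene called higher in F4/80high than in F4/80low TAMs was Plaur (1.35, adjusted p = 0.0184), with mean levels of 6.99 and 5.64.

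Most Ly6 proteins need the GPI anchor to stay on the surface, and of 25 listed genes that build and attach it, 22 were tested. In F4/80high TAMs 3 were higher and 10 lower than in PECs, and in F4/80low TAMs 0 were higher and 13 lower, with medians of -0.46 and -0.70. In each comparison 13 of the 22 were called, where 52.4% and 50.8% of all probes were called. Between the subsets 7 were higher in F4/80high TAMs and 0 lower, with a median of 0.22, where 31.9% of all probes were called, 18.3% higher and 13.6% lower.

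Interferon signalling was described because Ly6a and Ly6e are interferon-inducible. Of 13 receptors, kinases and factors, all tested, 6 were higher and 1 lower in F4/80high TAMs than in PECs, 6 higher and 6 lower in F4/80low TAMs, and 9 higher and 0 lower in F4/80high than in F4/80low TAMs. Irf7, the factor that amplifies type I interferon, was higher by 5.52 in F4/80high TAMs (adjusted p = 1.79e-05), by 2.89 in F4/80low TAMs (adjusted p = 0.00105) and by 2.62 between the subsets (adjusted p = 0.00299). Irf1, an interferon-induced transcription factor, rose by 4.26 and 3.44 from PECs and was higher by 0.82 in F4/80high than in F4/80low TAMs (adjusted p = 0.0252). Stat2 rose by 3.68 and 1.80, Jak2 by 3.28 and 1.59 and Irf9 by 1.70 and 0.92. The receptor genes Ifnar1, Ifnar2, Ifngr1 and Ifngr2 were called lower in F4/80low TAMs than in PECs (log2 changes -1.50, -1.30, -0.98 and -0.79). Of 22 interferon-induced effectors, 22 were higher in F4/80high TAMs than in PECs, 20 in F4/80low TAMs, and 22 in F4/80high over F4/80low TAMs, with median changes of 6.77, 4.33 and 2.57. In the same comparisons 24.5%, 21.9% and 18.3% of all probes were called higher, and 28.0%, 28.9% and 13.6% lower. Among the Ly6 probes Ly6e was also higher in F4/80high than in F4/80low TAMs, Ly6a did not pass the test, and the Ly6c and Plac8 probes were lower.

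Of the markers of other cells, the neutrophil, T cell, NK cell and non-classical monocyte lists moved with Ly6c and Plac8 between the subsets. The classical monocyte list was mixed, with 3 genes higher and 6 lower in F4/80high than in F4/80low TAMs. The macrophage list went the other way. List levels are given as the log2 of the summed level on each array. The macrophage list was present in every group. All 10 markers were well above background on all arrays of PECs and F4/80high TAMs and 9 of 10 in F4/80low TAMs, where Mertk, a receptor for the uptake of dead cells, was above background on no array. Adgre1, which encodes the antigen that divides the TAMs, had a mean level of 5.88 in PECs, against 5.94 in F4/80high and 2.89 in F4/80low TAMs. As the marker that divides the subsets, it was higher by 3.05 in F4/80high than in F4/80low TAMs (adjusted p = 8.72e-05). Of the 10 macrophage genes, 2 were higher and 2 lower in F4/80high TAMs than in PECs, 1 higher and 6 lower in F4/80low TAMs, and 7 higher and 0 lower in F4/80high than in F4/80low TAMs. Their median changes were -0.11, -2.08 and 2.27. The shares over all probes were 24.5%, 21.9% and 18.3% higher, and 28.0%, 28.9% and 13.6% lower. The summed macrophage level was between 9.16 and 9.73 in F4/80low TAMs, against 9.75 to 10.37 in F4/80high TAMs and 9.91 to 10.18 in PECs.

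Of 12 classical monocyte genes, all tested, 4 were higher and 1 lower in F4/80high TAMs than in PECs, 8 higher and 2 lower in F4/80low TAMs, and 3 higher and 6 lower in F4/80high than in F4/80low TAMs. For this list and the next, the shares of all probes called in these comparisons were 52.4%, 50.8% and 31.9%. Ccr2, the chemokine receptor by which these monocytes leave the marrow, was higher in both subsets, by 2.94 and 3.07 (adjusted p = 0.0207 and 0.0181), with a difference of -0.13 between them (adjusted p = 0.932). The summed level was 9.58 to 9.90 in PECs, 10.36 to 10.53 in the F4/80high and 10.42 to 11.43 in the F4/80low subset, where the highest value was that of replicate 1. Of 10 tested non-classical monocyte genes, 4 were higher and 2 lower in F4/80high TAMs than in PECs, 7 higher and 1 lower in F4/80low TAMs, and 0 were higher and 5 lower in F4/80high than in F4/80low TAMs. Nr4a1, a nuclear receptor needed by these cells, rose by 2.56 and 4.68 from PECs. Cd9, Ear2 and Cx3cr1 were chosen after their values were seen. Cd9, a tetraspanin, fell in both subsets (log2 changes -1.39 and -1.25, adjusted p = 0.000674 and 0.00154). Ear2 was called lower in F4/80high TAMs than in PECs (adjusted p = 0.0221) and was above background on 2 of 3 PEC arrays and on 0 of 3 F4/80high arrays. Cx3cr1, the fractalkine receptor, did not pass the test (1.88 and -0.12, adjusted p = 0.122 and 0.927). The summed level of this list was highest in PECs, at 7.41 to 7.90, against 6.40 to 6.76 in the F4/80high and 6.97 to 7.77 in the F4/80low subset, which overlapped with PECs. Most of the sum in PECs was Cd9, with mean levels of 7.57 in PECs, 6.18 in F4/80high and 6.33 in F4/80low TAMs. Ace, Adgre4, Cd300e and Pglyrp1 were above background on no PEC array.

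Neutrophil genes, 11 of which were tested, had a summed level of 7.01 to 7.41 in PECs, 7.84 to 8.37 in the F4/80high and 10.85 to 12.81 in the F4/80low subset. The highest value was that of F4/80low replicate 1, the array that was also highest on both Ly6c probes and both Plac8 probes. In F4/80low TAMs 9 of the 11 were higher than in PECs and 0 lower, and 8 were lower in F4/80high than in F4/80low TAMs. Of all probes, 21.9% were called higher in the former comparison and 13.6% lower in the latter. S100a8, which encodes a subunit of the cytosolic neutrophil protein calprotectin, was lower in F4/80high than in F4/80low TAMs, with a log2 difference of -6.46 (adjusted p = 0.000346). Ly6g, the usual neutrophil member of the Ly6 family, had no probe of that name. All 11 were well above background on all 3 arrays of F4/80low TAMs, against 5 in F4/80high TAMs and 4 in PECs, where Retnlg, Ngp, Cxcr2 and Mpo were above background on no array. Genes that no other whole group showed well above background, Cxcr2 among them, passed the filter only through F4/80low arrays. This favoured a difference from the other groups.

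T cell and NK cell genes were also higher in F4/80low TAMs. The summed T cell level was 3.08 to 3.75 in PECs, 3.73 to 4.15 in the F4/80high and 4.88 to 5.85 in the F4/80low subset, and Cd3d, part of the T cell receptor complex, was above background in F4/80low TAMs only. Cd3d, Cd3g, Cd8a, Cd8b1 and Icos were above background on no PEC and no F4/80high array. Those of them that were tested passed the filter only through F4/80low arrays, which favoured a difference from the other groups. Of 10 tested T cell genes, 8 were higher in F4/80low TAMs than in PECs and 8 were lower in F4/80high than in F4/80low TAMs. Of all probes, 21.9% were called higher in the former comparison and 13.6% lower in the latter. The summed NK cell level was 3.11 to 3.41, 3.27 to 3.57 and 4.78 to 5.23, and Ncr1, a defining NK receptor, was above background in no group. Of 5 tested NK cell genes, 5 were higher in F4/80low TAMs than in PECs. Eomes, Gzma and Klrd1 among them passed the filter only through F4/80low arrays. None of the 7 B cell genes passed the filter. Lymphocytes, neutrophils and monocytes can all express members of these families, and the part of these markers in the Ly6c and Plac8 changes was not tested. In bulk samples, fewer cells of a type and less RNA per cell cannot be told apart.

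**Figure D4:**
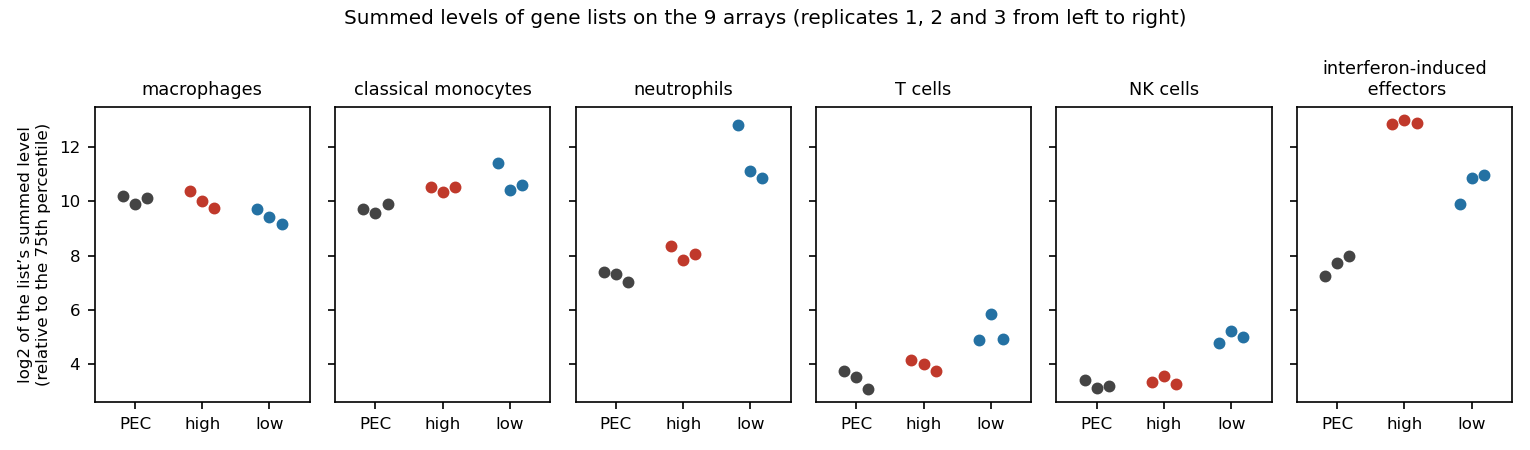
Log2 of the summed level of 6 gene lists on each array, with 1 point per array in the order of replicates 1, 2 and 3. The neutrophil list lay between 10.85 and 12.81 in F4/80low TAMs and at or under 8.37 elsewhere, and the interferon-induced effectors were highest in F4/80high TAMs.

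Of 6 tested genes of large peritoneal macrophages, 4 were lower in F4/80high and 5 in F4/80low TAMs than in PECs, with a summed level of 3.89 to 5.02 in PECs and at most 3.03 in TAMs, and Gata6, their lineage factor, was above background on no TAM array. Of 5 tested plasmacytoid dendritic cell genes, 4 were higher in F4/80high and 1 in F4/80low TAMs than in PECs. Of 5 tested dendritic cell genes, 2 were higher and 2 lower in F4/80high TAMs than in PECs, and 3 higher and 2 lower in F4/80low TAMs. The summed dendritic cell level was 8.09 to 8.42 in PECs, 5.93 to 6.48 in the F4/80high and 5.33 to 6.55 in the F4/80low subset. Most of the sum in PECs was Itgax, with mean levels of 8.29 in PECs, 5.12 in F4/80high and 3.21 in F4/80low TAMs. Flt3, Zbtb46, Xcr1, Clec9a and Cd209a were above background on no PEC array. Zbtb46, called higher in F4/80low TAMs than in PECs, was above background on no F4/80low array either. Flt3 passed the filter only through F4/80low arrays, which favoured a difference from the other groups. Endothelial genes lay between 4.42 and 5.59 on all arrays, with 1 of 3 tested called in each PEC comparison. Fibroblast and stroma genes lay between 3.65 and 4.41 in F4/80low TAMs and between 2.05 and 3.43 elsewhere. Of the 6 tested, 2 were called higher in F4/80low TAMs than in PECs, Col3a1 and Thy1. Thy1 had a mean level of 3.11 in F4/80low TAMs, against -4.05 in PECs and -3.77 in F4/80high TAMs. Thy1 passed the filter only through F4/80low arrays and Col3a1 only through TAM arrays, which favoured a difference from PECs. Lum, Pdgfra, Pdgfrb and Postn were above background on no F4/80low array. Over all probes 52.4% and 50.8% were called in the F4/80high and F4/80low comparisons with PECs.

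Likeness to other genes was measured as Pearson's r of the log2 levels over the 9 arrays, among 11149 other genes, and is given with no p, since any gene that separates the same groups scores high. The brightest probe of each gene was used. For Ly6a the genes most alike were Cxcl10 (r = 0.993), an interferon-induced chemokine, Serpina3g (0.992) and Jdp2 (0.990). For the own Ly6c1 probe they were Fpr2 (0.992), a formyl peptide receptor, Arap3 (0.991) and Snx10 (0.986). For Plac8 they were Scin (0.990), Dock5 (0.981) and Map4k4 (0.975). For Ly6e they were Zfp143 (0.984), Kcnn3 (0.982) and Etnk2 (0.977), and for Ly6i H3c1 (0.993), Egr1 (0.991) and Il2ra (0.989). These lists had no gene in common.

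Each array had 62976 spots, of which 3671 were controls. The software marked 36.1% to 38.3% of the remaining spots as well above background, and no spot of these probes was saturated. Log2 levels of replicate arrays correlated at 0.979 to 0.991 in PECs, 0.976 to 0.988 in the F4/80high and 0.964 to 0.978 in the F4/80low subset. The number of arrays limits the precision, with a median standard error of 0.241 for a log2 change. Of the called probes, 43.1% were higher in F4/80low TAMs than in PECs and 57.3% were higher in F4/80high than in F4/80low TAMs. With each array centred on its median these shares were 21.5% and 76.4%, since the median change over all probes moved to -0.58 and 0.40.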

How the data were processed

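The deposited scanner files hold spot intensity on a linear scale from Agilent Feature Extraction 10.5.1.1 (protocol GE1_105_Dec08), after background subtraction and spatial detrending by the software, with probe positions on mm9, per the file headers. The deposited value table holds log2 values of 9703 probes, read as log2 from the values, with medians between 8.26 and 8.35. Its normalization and filter are not given in the sources used here, and it served as an alternative.

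Processed intensities were log2-transformed, and from each the 75th percentile of its array (controls left out) was subtracted. Spots marked as outliers were left out and spots of a probe averaged. The 21199 probes that a whole group of 3 arrays showed well above background were tested with limma 3.58.1 in R 4.3.3, with all 9 arrays in 1 fit and 3 comparisons, two-sided. The script was tested on simulated data.

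The 6 genes and the 16 lists were chosen with earlier results of these data known. All probes of the 6 genes are named, with the 3 genes most alike each, up to 6 genes of the Ly6/uPAR and interferon receptor and factor lists by size of change among those called, and the markers listed first of other lists. Genes chosen for their position, marker genes at background, the interferon receptors and Plaur were named outside this rule. Some genes the rule gives are not reported here. The brightest probe stood for a listed gene.

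The labels number the replicates 1 to 3 in each group. The deviations of same-numbered TAM samples from their group means correlated at 0.23, 0.16 and 0.12. Those of TAM samples with unlike numbers correlated at -0.17 to 0.03. The labels do not say whether same-numbered TAM samples were paired, and these weak correlations do not settle it. The correlations of PECs with same-numbered TAMs lay between -0.09 and 0.09. The main fit has no replicate block. Alternatives were normexp background correction (offset 50), quantile normalization, median centring, no filter, the brightest probe per gene, only the groups compared, slide as a block, slide 1 only, the replicate block, the deposited table and each sample left out.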

Additional observations from a re-analysis of the deposited data

How the results depend on the processing

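Over all alternatives no change of these probes turned its direction among those called. Of the values for single probes, 315 kept their call, 14 lost it and 1 gained it. With slide as a block 7162 and 6055 probes were called in F4/80high and F4/80low TAMs against PECs, and 6244 and 5110 within slide 1, beside 11117 and 10760. Without the filter on dim probes 22368 were called in F4/80low TAMs against PECs. With the brightest probe per gene 3 of 5 member genes were called between the subsets, since this setting drops a Ly6c and a Plac8 probe. With a sample left out, the probes called ranged from 8924 to 10795 and 8243 to 10523 against PECs and from 4866 to 6232 between the subsets (6753 with all), and the probes of these genes called from 6 to 6, 6 to 7 and 4 to 5. The fit with replicate number as a block called 10908, 10493 and 6479 probes. It called 6, 7 and 5 probes of these genes, and changed no call of theirs.

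The deposited table gave no call for the shared Ly6c probe (0.44, adjusted p = 0.445) and the 3′ Plac8 probe (0.89, adjusted p = 0.0654) from PECs to F4/80high TAMs, nor for Ly6e between the subsets (0.98, adjusted p = 0.0581, limma). Without the filter the own Ly6c1 probe missed the threshold between the subsets (adjusted p = 0.0599). The cause was not tested. Levels near background limit the size of the changes of Ly6a, Ly6i, Plac8 and the shared Ly6c probe.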
